A study of Mus musculus with 6 samples.

Results

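The genes described are 10 cadherins of the mouse, namely Cdh1, Cdh2, Cdh3, Cdh4, Cdh6, Cdh7, Cdh8, Cdh10, Cdh11 and Cdh13, among 20416 genes with a value. They were taken by name as the relatives of Cdh6, and Cdh6 itself was chosen on its clone difference in these same arrays. The clone differences of all 10 are therefore given with their standard errors as a description. How many pass the test run over all genes is counted further on beside the share of all genes, and supports nothing. Together they had 169 of the 212097 probe sets to which the array annotation gives a single gene symbol, 13 to 21 per gene. A probe set on this array design covers about an exon, and the value of a gene is the mean log2 value of its probe sets on an array.

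The arrays compare a Meg3 clone with a vector clone of MIN6-4N, an insulin-producing line derived from a mouse insulinoma. The Meg3 clone carries pcDNA3.1 with the mouse Meg3 sequence, an imprinted long non-coding RNA, and the vector clone carries pcDNA3.1 alone, both integrated after nucleofection. Each clone was grown as 3 cultures, so there were 3 Meg3 arrays and 3 vector arrays. Cells of both clones had been selected with 750 µg/ml G418 over 5 weeks and were then kept in low-glucose DMEM with 15% serum and 500 µg/ml G418. The stated purpose is to find genes regulated by Meg3 in beta cells. Each group is a single clone, so its spread is that between cultures of that clone. What the Meg3 plasmid did and what else sets the clones apart cannot be told apart.

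Cadherins are transmembrane proteins that hold neighbouring cells together in the presence of calcium, each preferring to bind its own kind on the next cell. Type I members (Cdh1 to Cdh4) and type II members (Cdh6, Cdh7, Cdh8, Cdh10 and Cdh11) differ in the interface of the outermost extracellular domain, and both bind catenins that tie the junction to actin. Cdh13 lacks the membrane-spanning and cytoplasmic parts and is held by a lipid anchor. In islets, E-cadherin (Cdh1) and N-cadherin (Cdh2) join beta cells to each other.

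Pairs of arrays correlated at 0.968 or more over gene values, and 2 arrays stood apart. Probe set values of Meg3 replicate 1 had an SD of 0.63 around the median of the other arrays and those of vector replicate 2 an SD of 0.85, against 0.42 to 0.48 on the remaining 4 arrays. Cadherin values are therefore also given without these 2 arrays, which leaves 2 cultures per clone. Meg3 itself measured 7.24, 7.91 and 7.53 in the Meg3 clone, against 5.63, 6.00 and 5.88 in the vector clone. Its values did not overlap between the clones and differed by 1.72 on the log2 scale (SE 0.19; limma, adjusted p = 0.00756). All 10 beta cell markers had a mean above the median of all genes, 6.66, and their clone differences ran from -0.27 to 0.24. Of these, 0 passed the limma test, as did 0.666% of all genes. Ins2 averaged 12.60 in the Meg3 clone and 12.54 in the vector clone. Mafa and Slc2a2, named after their values were seen, lay only just above that median and lower in the Meg3 clone without overlap. They averaged 6.86 and 6.87 in the Meg3 clone, against 7.09 and 7.14 in the vector clone. The value of Mafa rests on 1 probe set, and the clones did not overlap for 12.8% of all genes.

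The line carried signal for several cadherins at once. Olfactory receptor genes were taken as silent in this line, and the 95th percentile of the means of their 1206 probe sets, 6.08 in the Meg3 clone and 6.06 in the vector clone, served as the level to exceed. Of the 169 cadherin probe sets, 123 lay above it in the Meg3 clone and 119 in the vector clone, which over all named probe sets was the case for 67.7% and 68.3%. Cdh1, Cdh2, Cdh4, Cdh6 and Cdh8 exceeded it with nearly every probe set. Cdh3, Cdh10, Cdh11 and Cdh13 did so with 10 probe sets at most, and Cdh7 did so with most of its probe sets in the Meg3 clone only. The plot of gene values on the 6 arrays shows the split.

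**Figure D1:**
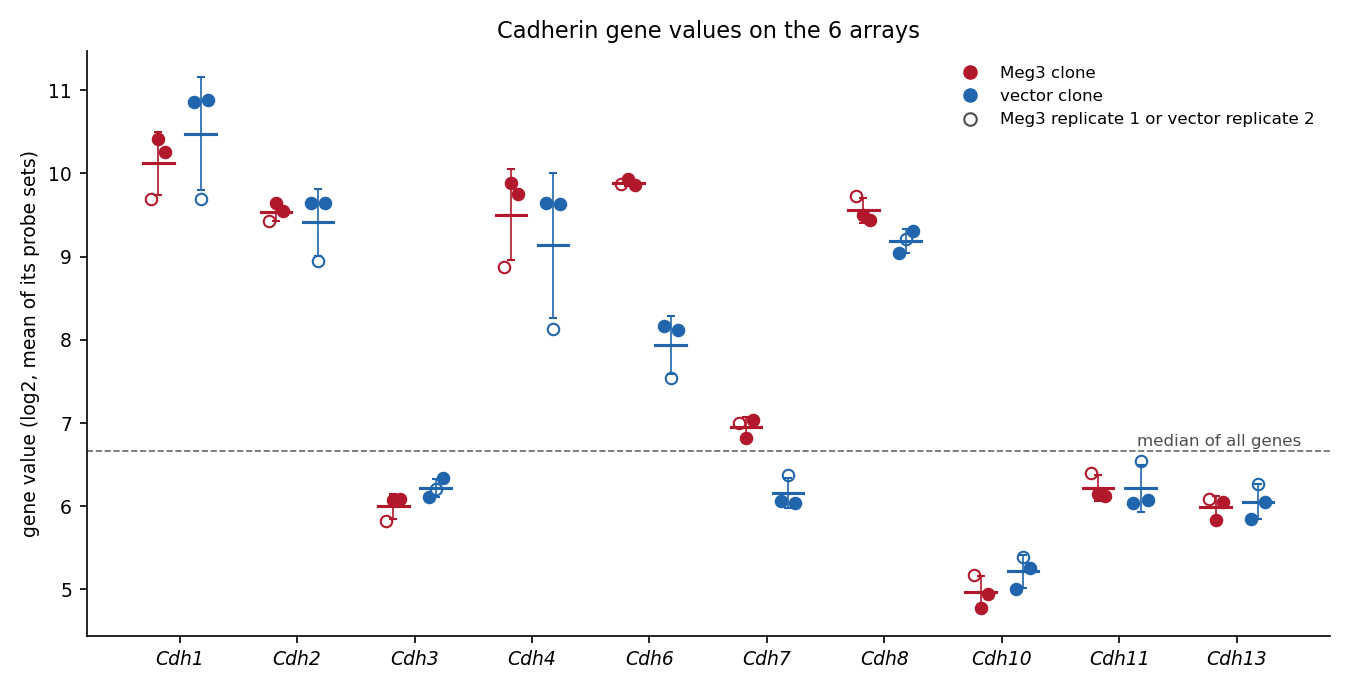
Gene values (log2, mean of the probe sets of a gene) of the 10 cadherins on each array, with the Meg3 clone left of the vector clone, bars for the mean ± SD (n = 3) and open points for the 2 arrays that stood apart. Cdh6 lies between 9.86 and 9.93 in the Meg3 clone and between 7.54 and 8.16 in the vector clone, while Cdh10 lies below the median of all genes (dashed, 6.66) on every array.

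Among the type II genes, Cdh6 (K-cadherin, known from the developing kidney and nervous system) had the largest clone difference. Cdh6 measured 9.88, 9.93 and 9.86 in the Meg3 clone, against 8.16, 7.54 and 8.12 in the vector clone. Every Meg3 culture exceeded every vector culture, and vector replicate 2 was the lowest array. The means were 9.89 ± 0.04 in the Meg3 clone and 7.94 ± 0.35 in the vector clone (SD, n = 3 each), a difference of 1.94 (SE 0.18) or 3.85-fold. Of the 20416 genes, 3 had a larger increase, and in absolute size the difference lay at percentile 99.95. Cdh6 was chosen on this difference, so a high rank was given in advance and supports nothing. Whether more cells carried Cdh6 RNA or each cell carried more of it cannot be told apart in RNA pooled over a culture.

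The Cdh6 difference had the same sign on every probe set. All 13 Cdh6 probe sets were higher in the Meg3 clone, by 0.63 to 2.97 with a median of 2.0, and 12 of them lay entirely higher there, as did 6.08% of all probe sets. Tested singly by limma, 0 of the 169 cadherin probe sets were called. The Cdh6 probe sets make up the mean on which the gene was picked, so their shared sign supports nothing. On the brightest Cdh6 probe set the Meg3 cultures read 11.39, 11.40 and 11.54, against 9.54, 9.30 and 9.36 for the vector cultures. The probe set with the smallest difference read 8.18, 7.86 and 7.67 in the Meg3 clone, against 7.24, 7.70 and 6.90 in the vector clone, and there vector replicate 2 reached into the range of the Meg3 clone. All 13 Cdh6 probe sets exceeded the olfactory receptor level in both clones, so Cdh6 signal was also present in the vector clone. Without the 2 arrays that stood apart the gene differed by 1.75 (SE 0.10).

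**Figure D2:**
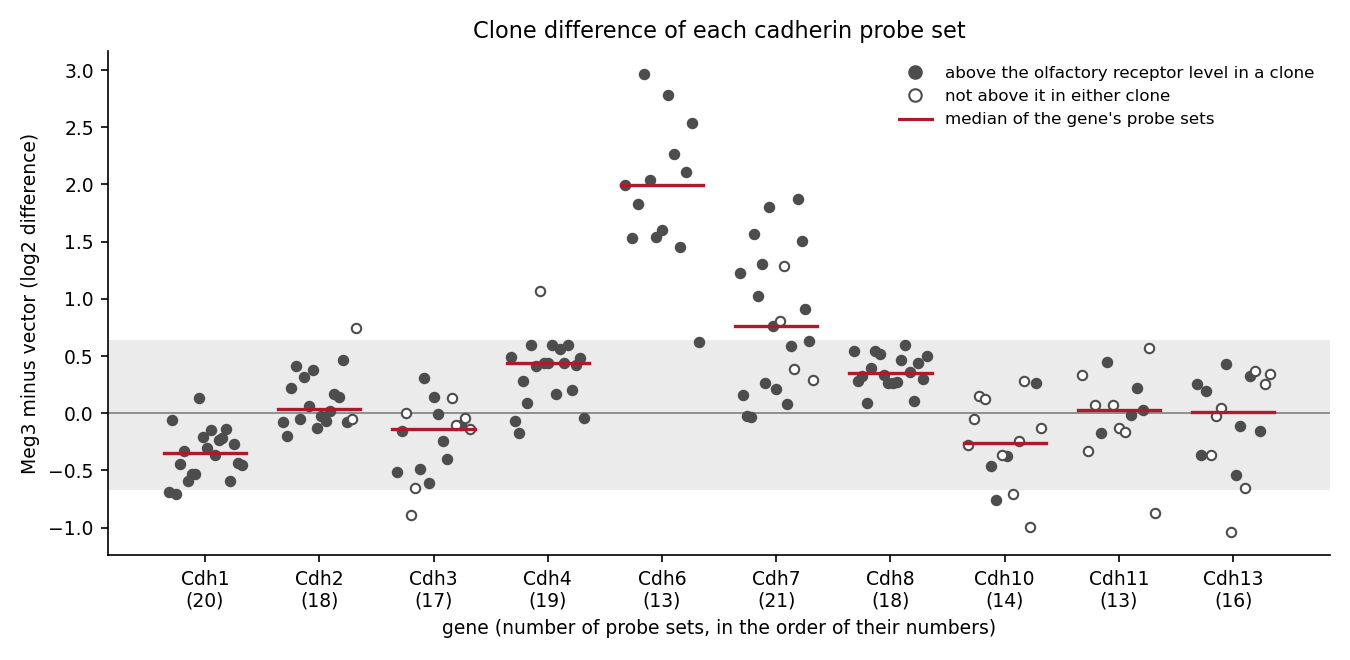
Clone difference (Meg3 minus vector, log2) of each of the 169 cadherin probe sets, in the order of their numbers within a gene, with the median of each gene as a bar and the 5th to 95th percentile of all probe sets (-0.66 to 0.63) shaded. The 13 Cdh6 probe sets spread from 0.63 to 2.97, whereas those of Cdh11 spread from -0.87 to 0.57 around a median of 0.03.

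Promoters are shown for 3 type II members, namely Cdh6, Cdh7 and Cdh10. They were chosen after their levels and clone differences were seen. Of the 10 genes, Cdh6, Cdh7, Cdh8 and Cdh10 matched the RefSeq promoter table, which runs from 250 bases before to 50 bases after a start on GRCm38.p6. The Cdh6 window is chr15:13173626-13173925 on the minus strand, the Cdh10 window is chr15:18820079-18820378 on the plus strand, and the first of 3 Cdh7 windows is chr1:109982650-109982949 on the plus strand. Capitals mark matches on either strand to the letters GGGCGG (GC box), CANNTG (E box, where N is any base), TATAAA and CCAAT, and capitals that run on hold overlapping matches.
Cdh6: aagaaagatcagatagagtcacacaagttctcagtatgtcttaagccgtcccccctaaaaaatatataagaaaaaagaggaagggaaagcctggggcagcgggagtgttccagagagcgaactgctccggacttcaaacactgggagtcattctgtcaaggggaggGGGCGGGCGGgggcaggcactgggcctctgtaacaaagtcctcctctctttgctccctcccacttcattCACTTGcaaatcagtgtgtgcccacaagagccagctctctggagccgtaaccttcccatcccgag
Cdh7: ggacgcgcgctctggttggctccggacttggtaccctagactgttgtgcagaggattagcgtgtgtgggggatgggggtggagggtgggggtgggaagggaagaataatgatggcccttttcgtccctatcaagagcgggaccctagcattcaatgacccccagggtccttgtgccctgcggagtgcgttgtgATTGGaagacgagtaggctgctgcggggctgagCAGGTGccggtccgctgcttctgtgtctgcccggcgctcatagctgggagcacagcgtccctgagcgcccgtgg
Cdh10: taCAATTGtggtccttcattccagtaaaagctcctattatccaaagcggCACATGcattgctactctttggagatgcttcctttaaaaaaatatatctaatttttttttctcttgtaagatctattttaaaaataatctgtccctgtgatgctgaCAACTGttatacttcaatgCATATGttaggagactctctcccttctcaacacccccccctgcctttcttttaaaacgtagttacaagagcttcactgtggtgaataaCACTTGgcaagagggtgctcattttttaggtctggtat

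The Cdh6 window held 2 overlapping GC boxes, beginning 84 and 80 bases before the start, and 1 E box, 15 bases before it. Its GC content was 53.0%, close to the median of 52.7% over 32851 promoters of 300 bases. The first Cdh7 window had 62.7% GC, with the E box CAGGTG 24 bases and a CCAAT match 57 bases before the start, and each of the 3 Cdh7 windows held CAGGTG. The Cdh10 window had 37.7% GC, 5 E boxes and no match to the GC box letters. The Cdh8 window, which is not printed, had 62.3% GC, 2 E boxes and 1 CCAAT match. It also held 1 GC box, beginning 80 bases before the start as 1 of those of Cdh6 does, so GC boxes were not particular to Cdh6. GC boxes occurred in 35.7%, E boxes in 72.3%, CCAAT in 37.4% and TATAAA in 13.6% of all promoters in the table. These matches describe the letters of the windows, and factor binding was not measured.

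Cdh7, a type II cadherin known from the developing nervous system, came next. It measured 7.00, 6.82 and 7.03 in the Meg3 clone, against 6.06, 6.37 and 6.04 in the vector clone. The clones did not overlap, and the difference was 0.79 (SE 0.14), or 1.73-fold. Of its 21 probe sets, 19 were higher and 9 lay entirely higher in the Meg3 clone (6.08% of all probe sets did). The number above the olfactory receptor level was 17 in the Meg3 clone and 9 in the vector clone. Its bright probe sets disagreed, however. The brightest differed by only 0.27 (SE 0.26), the next by 1.02 (SE 0.25) and the one after that by 0.16 (SE 0.26). The largest differences, up to 1.87, sat on dimmer ones.

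Cdh8, which is known from brain circuits, had gene values well over the overall median in either clone. Its values were 9.72, 9.50 and 9.45 in the Meg3 clone, against 9.04, 9.22 and 9.31 in the vector clone. The clones did not overlap, but the gap between the closest cultures was small next to that of Cdh6. The difference was 0.37 (SE 0.13), or 1.29-fold. Every one of its 18 probe sets was higher in the Meg3 clone, by 0.09 to 0.60, and 5 lay entirely higher there (6.08% of all probe sets did).

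The remaining type II genes had low gene values. In the order of measured genes on chromosome 15, Cdh10 is separated from Cdh6 by Cdh9. Cdh10 measured 5.17, 4.77 and 4.95 in the Meg3 clone, against 5.00, 5.39 and 5.26 in the vector clone. These ranges overlapped, and at most 4 of its 14 probe sets exceeded the olfactory receptor level in a clone. Cdh11 (OB-cadherin, known from mesenchyme and bone) measured 6.40, 6.14 and 6.12 in the Meg3 clone, against 6.04, 6.54 and 6.07 in the vector clone. The Cdh11 ranges overlapped as well, and the gene means were 6.22 ± 0.16 in the Meg3 clone and 6.22 ± 0.28 in the vector clone (SD, n = 3 each). The probe sets of Cdh11 disagreed in level. The brightest averaged 12.14 in the Meg3 clone and 11.93 in the vector clone, whereas 8 of the 13 did not exceed the olfactory receptor level in the vector clone.

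The differences of the 4 type I genes ran from -0.36 to 0.37. Cdh1 (E-cadherin, the adhesion molecule of epithelia) had the highest gene value of the 10 in both clones. It measured 9.70, 10.41 and 10.26 in the Meg3 clone, against 10.86, 9.70 and 10.88 in the vector clone. The ranges overlapped, and the lowest arrays were those that stood apart, Meg3 replicate 1 and vector replicate 2. The difference was -0.36 (SE 0.33) over all arrays and -0.53 (SE 0.10) without these 2, with means of 10.33 in the Meg3 clone and 10.87 in the vector clone. Of the 20 Cdh1 probe sets, 19 were lower in the Meg3 clone.

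Cdh2 (N-cadherin, of neural and mesenchymal cells and of beta cells) measured 9.42, 9.64 and 9.55 in the Meg3 clone, against 9.65, 8.95 and 9.64 in the vector clone. Its ranges overlapped. The difference of 0.13 (SE 0.20) became -0.05 (SE 0.10) without the arrays that stood apart, so no direction is given. Cdh4 (R-cadherin, known from the retina) measured 8.88, 9.89 and 9.75 in the Meg3 clone, against 9.64, 8.13 and 9.64 in the vector clone. Here too the arrays that stood apart were the lowest of their clone and the ranges overlapped. The Cdh4 difference was 0.37 (SE 0.43), or 0.18 (SE 0.10) without them, and 16 of its 19 probe sets were higher in the Meg3 clone.

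Cdh3 (P-cadherin, of placenta and basal epithelia) was lower in the Meg3 clone by a small margin. It measured 5.82, 6.08 and 6.09 in the Meg3 clone, against 6.12, 6.21 and 6.34 in the vector clone. The clones did not overlap, though the closest cultures nearly touched. The difference was -0.22 (SE 0.13), or -0.14 (SE 0.11) without the 2 arrays that stood apart. Of its 17 probe sets, 7 exceeded the olfactory receptor level in the Meg3 clone and 10 in the vector clone. Cdh13 (T-cadherin, a receptor for adiponectin) measured 6.08, 5.84 and 6.05 in the Meg3 clone, against 5.85, 6.27 and 6.05 in the vector clone. Its ranges overlapped, and its 16 probe sets were split evenly, with 8 higher and 8 lower.

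**Figure D3:**
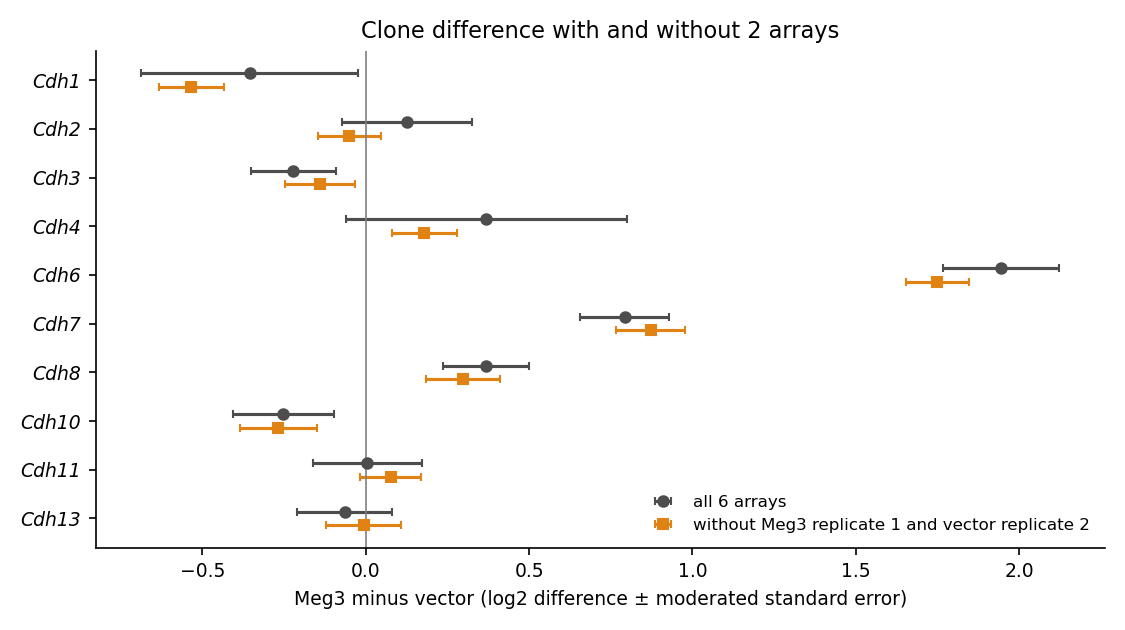
Clone difference (Meg3 minus vector, log2, ± moderated standard error) of the 10 cadherins over all 6 arrays (circles) and without Meg3 replicate 1 and vector replicate 2 (squares). Cdh6 stays at 1.75 or more, and the standard error of Cdh1 goes from 0.33 with all arrays to 0.10 without the 2 arrays.

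In the Meg3 clone the gene values ran in the order Cdh1, Cdh6, Cdh8, Cdh2, Cdh4, Cdh7, Cdh11, Cdh3, Cdh13 and Cdh10. The ranges of Cdh1 and Cdh6 overlapped there, as did those of Cdh8 and Cdh2, of Cdh2 and Cdh4, and of Cdh3 and Cdh13. In the vector clone the order was Cdh1, Cdh2, Cdh8, Cdh4, Cdh6, Cdh3, Cdh11, Cdh7, Cdh13 and Cdh10, and every neighbouring pair from Cdh2 to Cdh6 and from Cdh3 to Cdh13 overlapped. Cdh6 thus stood second among the 10 in the Meg3 clone and lower in the order, below Cdh4, in the vector clone. Probes differ in how strongly they hybridise, so these are orders of array values and not of transcript numbers per length.

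Of the 10 cadherins, the Meg3 clone had 6 at a higher and 4 at a lower mean, and the median difference was 0.07, against 0.01 over all genes. With limma's moderated test and Benjamini-Hochberg adjustment over all genes, Cdh6 alone passed an adjusted p under 0.05, as did 0.666% of the 20416 genes. Without Meg3 replicate 1 and vector replicate 2, Cdh1, Cdh6 and Cdh7 passed, in a fit in which 5.44% of all genes did. The clones did not overlap for 4 of the 10, namely Cdh3, Cdh6, Cdh7 and Cdh8, against 12.8% of all genes. Of the 169 probe sets, 31 lay entirely higher in the Meg3 clone, against 6.08% of all probe sets, and 26 of these belonged to Cdh6, Cdh7 or Cdh8. Another 9 lay entirely lower, against 5.41% of all probe sets. Because Cdh6 was picked on this contrast, nothing is read from these counts.

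Genes that act with cadherins were taken from lists by function, 96 genes of which 95 were measured. Of these, 0 passed the test higher and 2 passed it lower in the Meg3 clone, Dsc2 and Itgb8, where 0.666% of all genes passed in either direction. Before adjustment, 4 were higher and 9 lower with p under 0.05, as were 6.96% of all genes in either direction. The median difference was -0.03, against 0.01 over all genes. Vector replicate 2 and Meg3 replicate 1 touch these counts too, since 3 partner genes were called higher and 9 lower without them, in a fit that called 5.44% of all genes.

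Catenins bind the cytoplasmic tails of classical cadherins, and the linkers join them to actin. Of the 15 catenin and linker genes, 0 passed the limma test, while 1 was higher and 2 were lower before adjustment (unadjusted p under 0.05), and 14 had a mean above the median of all genes. The brightest were the actin crosslinker Actn4, at 10.68 in the Meg3 clone and 10.66 in the vector clone, and the nectin-binding Afdn, which differed by 0.21 (SE 0.16). Beta-catenin (Ctnnb1) was chosen after its value was seen. Its values differed by -0.33 (SE 0.19) over all arrays and by -0.57 (SE 0.13) without the 2 arrays that stood apart, where it passed the test (adjusted p = 0.0298). Ctnnd2, a delta-catenin of neurons, and the actin linker Vcl were also chosen after their values were seen. Ctnnd2 averaged 8.86 in the Meg3 clone and 8.14 in the vector clone, a difference of 0.72 (SE 0.23; adjusted p = 0.422), and without the 2 arrays it was called at 0.56 (SE 0.10; adjusted p = 0.0116). Vcl averaged 8.18 in the Meg3 clone and 8.94 in the vector clone, a difference of -0.76 (SE 0.17; adjusted p = 0.138), and without the 2 arrays it was called at -0.84 (SE 0.10; adjusted p = 0.00132).

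Desmosomes are junctions in which the cadherins Dsc and Dsg are tied to keratin through desmoplakin. Of 11 desmosomal genes, 1 fell and 10 did not pass the test, and before adjustment (unadjusted p under 0.05) 1 was higher and 2 were lower. Dsc2 (desmocollin 2) measured 7.73, 7.55 and 7.38 in the Meg3 clone, against 8.52, 8.37 and 8.44 in the vector clone. All Meg3 cultures lay below all vector cultures, and each of the 20 Dsc2 probe sets was lower in the Meg3 clone. The difference was -0.89 (SE 0.13; limma, adjusted p = 0.0266), and it lay between -1.05 and -0.80 in 16 alternative settings. The call was lost in 7 of them (adjusted p 1.968e-05 to 0.174). Among these were the fits without vector replicate 1 (0.129), vector replicate 3 (0.144), Meg3 replicate 2 (0.168) or Meg3 replicate 3 (0.174). Desmoplakin (Dsp) and the desmoglein Dsg1a were chosen after their values were seen. Dsp averaged 8.32 in the Meg3 clone and 9.21 in the vector clone, a difference of -0.89 (SE 0.17; adjusted p = 0.0701), and without the 2 arrays that stood apart it passed at -1.02 (SE 0.10; adjusted p = 0.0004). Dsg1a, whose value rests on 1 probe set, averaged 7.54 in the Meg3 clone and 6.59 in the vector clone. Its difference was 0.95 (SE 0.32; adjusted p = 0.465), and it was 0.51 (SE 0.18; adjusted p = 0.154) without these 2 arrays.

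Integrins that recognise the RGD tripeptide were listed because human cadherin 6 carries such a motif. Of 9 measured, 1 fell. Itgb8, the beta subunit of an integrin that activates TGF-beta, measured 6.78, 6.67 and 6.87 in the Meg3 clone, against 7.74, 8.07 and 7.88 in the vector clone. The clones did not overlap, and all 14 Itgb8 probe sets were lower in the Meg3 clone. The gene differed by -1.12 (SE 0.13; limma, adjusted p = 0.00975), but its brightest probe set by only -0.11 (adjusted p = 0.986), and the gene differed by -1.50 to -0.11 over 16 alternative settings. The call was lost in 5 of them (adjusted p 8.145e-06 to 0.986). Among these were the fits without vector replicate 3 (0.0613), Meg3 replicate 2 (0.0872) or Meg3 replicate 3 (0.0666).

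The transcription factors that act on cadherin choice, such as the Snail, Zeb and Twist repressors of Cdh1 and the Grhl activators, gave 0 calls among 16 genes by limma, while before adjustment (unadjusted p under 0.05) 1 was higher and 1 lower. Tcf4, a factor that binds E boxes, averaged 8.70 in the Meg3 clone and 8.66 in the vector clone. Zeb1 averaged 8.55 in the Meg3 clone and 8.13 in the vector clone, a difference of 0.42 (SE 0.11; adjusted p = 0.206). Grhl1, named after its value was seen, had a difference of -0.62 (SE 0.13; adjusted p = 0.104). Without the arrays that stood apart Zeb1 was called higher (0.42, SE 0.10; adjusted p = 0.0331) and Grhl1 lower (-0.71, SE 0.11; adjusted p = 0.00476).

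The epithelial splicing factors, of which 0 of 2 were called by limma and 1 was lower at an unadjusted p under 0.05, differed by -0.47 (SE 0.19) for Esrp1 and -0.07 (SE 0.13) for Esrp2. Without the arrays that stood apart Esrp1 was called lower (-0.56, SE 0.10; adjusted p = 0.0133). Among 13 measured genes for cadherin maturation, shedding and turnover, 0 were called and 0 reached an unadjusted p under 0.05. Of the membrane-bound proteases, Adam9 differed by -0.07 (SE 0.11) and Adam10, which sheds cadherins, by -0.29 (SE 0.16). The 4 nectins, adhesion molecules of the same junctions, had 0 calls and 1 gene higher at an unadjusted p under 0.05. Nectin3 differed by 0.37 (SE 0.15) and Nectin1 by 0.15 (SE 0.18).

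Of 11 genes of the mesenchymal state 0 were called by limma, with 1 lower at an unadjusted p under 0.05. Col1a1, a collagen chain, differed by -0.04 (SE 0.12) and S100a4, a calcium-binding protein of motile cells, by -0.18 (SE 0.17). Fibronectin (Fn1), chosen after its value was seen, measured 6.02, 6.07 and 6.06 in the Meg3 clone, against 7.95, 6.52 and 8.02 in the vector clone. The clones did not overlap, and vector replicate 2 was far below the other vector cultures. Over all arrays its difference of -1.45 (SE 0.36) had an adjusted p of 0.201, and without the 2 arrays that stood apart it was -1.92 (SE 0.10; adjusted p = 1.2e-05).

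The 16 other cadherin genes had 0 calls by limma and 1 gene lower at an unadjusted p under 0.05, with differences from -0.39 to 0.29. Without the 2 arrays that stood apart Cdh23 was called lower (-0.51, SE 0.10; adjusted p = 0.0202). In that fit Cdhr5 was called higher (0.59, SE 0.14; adjusted p = 0.0401). Both were named after their values were seen. The brightest of the 16 were Cdhr1, a cadherin-related gene of photoreceptors, and Cdh22, a type II cadherin of brain. Cdhr1 averaged 9.32 in the Meg3 clone and 9.41 in the vector clone. Cdh22 averaged 7.18 in the Meg3 clone and 7.19 in the vector clone.

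**Figure D4:**
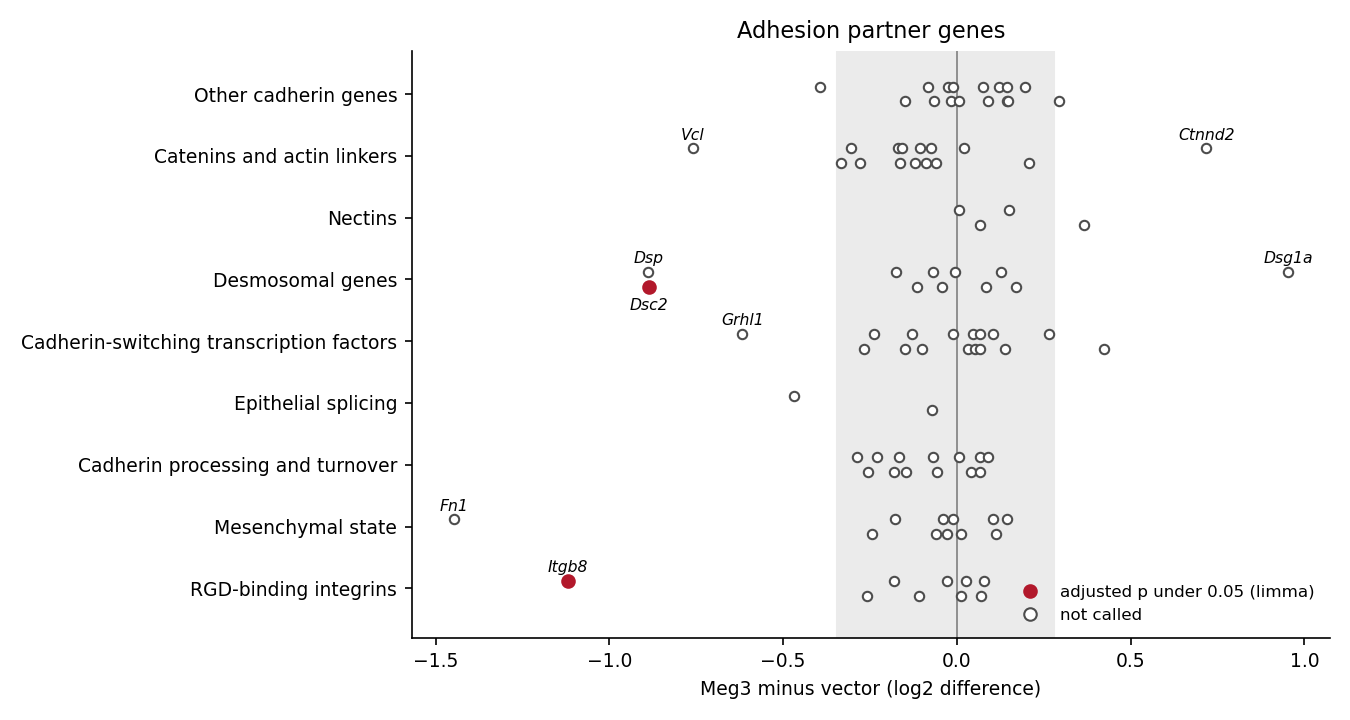
Clone difference (Meg3 minus vector, log2) of each measured partner gene by list, with genes that passed an adjusted p under 0.05 filled and the 5th to 95th percentile of all genes (-0.34 to 0.28) shaded. The filled points are Dsc2 at -0.89 and Itgb8 at -1.12, and Fn1 at -1.45 lies farthest left without passing.

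The genes beside Cdh6 on chromosome 15 had clone differences about as wide as those of genes in general. Of the 10 measured genes on each side, 0 of 20 passed the limma test, as did 0.666% of all genes. Only 1 reached an unadjusted p under 0.05, as did 6.96% of all genes. Without the arrays that stood apart 0 were called, in a fit that called 5.44% of all genes. Nothing is read from these counts. The neighbours differed by -0.36 to 0.30 with a median of 0.06. Over all genes the 5th to 95th percentile was -0.34 to 0.28 and the median 0.01. Of the 20 neighbours, 11 had a mean above the median of all genes. The brightest were Sub1, a transcription coactivator, and Zfr, a zinc finger RNA-binding protein. Sub1 averaged 11.02 in the Meg3 clone and 11.13 in the vector clone. Zfr averaged 10.28 in the Meg3 clone and 10.24 in the vector clone. On one side Cdh6 is followed by the cadherin genes Cdh9, Cdh10, Cdh12 and Cdh18, all with means below the median of all genes. Cdh9 differed by 0.07, Cdh10 by -0.25, Cdh12 by 0.15 and Cdh18 by 0.12.

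**Figure D5:**
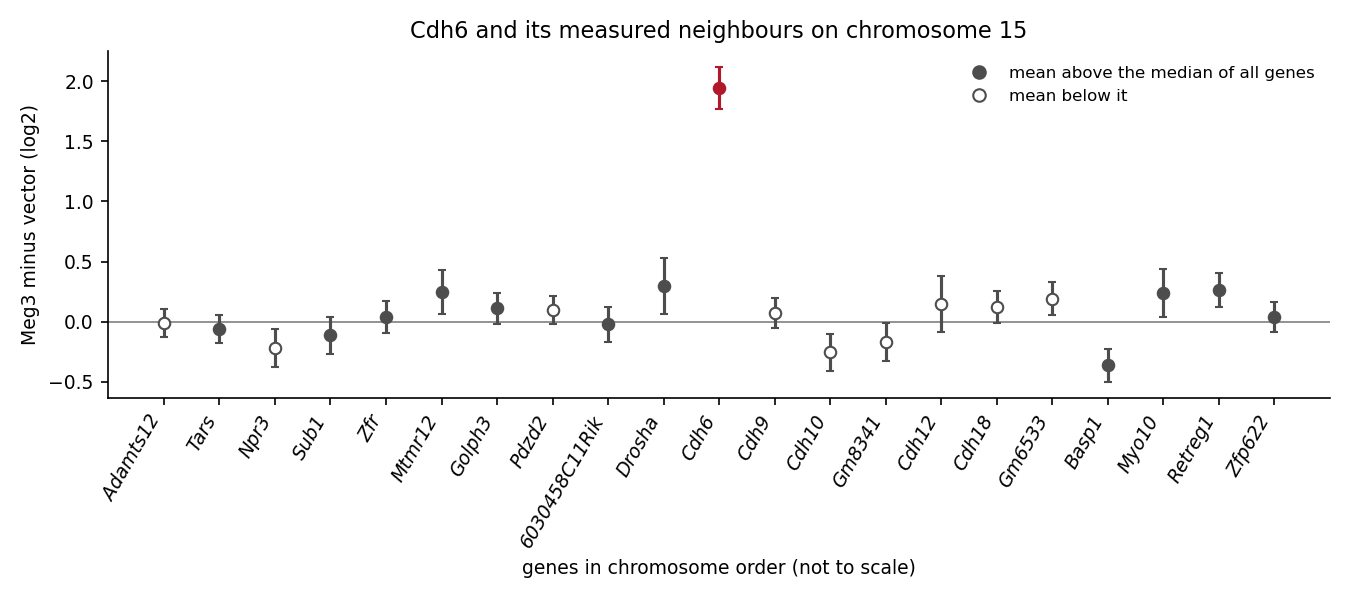
Clone difference (Meg3 minus vector, log2, ± moderated standard error) of Cdh6 and the 10 measured genes on each side of it, in chromosome order and not to scale, with open points for genes below the median of all genes. Cdh6 stands at 1.94, and its 20 neighbours lie between -0.36 and 0.30.

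The genes whose values followed Cdh6 most closely over the 6 arrays, among 9218 candidates brighter than the overall median, were Matn2, Ptprr, Plcb1, Moxd1 and Nxph1. Their Pearson correlations with Cdh6 ran from 0.989 to 0.993. They are given as a description, over points that fall into 2 clones. Matn2, a matrix protein, averaged 8.68 in the Meg3 clone and 7.26 in the vector clone. Moxd1, a monooxygenase-like protein, averaged 8.81 in the Meg3 clone and 7.24 in the vector clone. Plcb1, a phospholipase C, differed by 1.08, Ptprr, a receptor phosphatase, by 0.85, and Nxph1, a neurexin ligand, by 0.65.

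Markers of other cell types were checked beside Cdh6. Of 34 such markers over 10 cell types, 0 were called by limma, against 0.666% of all genes, and 10 had a mean above the median of all genes. Only 1, the immune marker Cd3e, reached an unadjusted p under 0.05, as did 6.96% of all genes. Cd3e averaged 6.47 in the Meg3 clone and 7.03 in the vector clone. The duct marker Krt7, named after its value was seen, was bright at 10.03 in the Meg3 clone and 10.13 in the vector clone. Of the 4 measured duct markers it was the only 1 above the median of all genes. Krt19, Sox9 and Cftr averaged 5.29, 6.39 and 4.29 in the Meg3 clone and 5.12, 6.27 and 4.23 in the vector clone. Nephron markers, listed because Cdh6 is known there, had a summed level (log2 of the sum) of 9.38 to 9.87 in the Meg3 clone and 9.16 to 9.53 in the vector clone, and 2 of 5 exceeded the median of all genes. The brightest of them, Pax2, weighs most in that sum and averaged 8.86 in the Meg3 clone and 8.43 in the vector clone. Lhx1, also above the median of all genes, averaged 7.00 in the Meg3 clone and 6.84 in the vector clone. Pax8, Wt1 and Six2 lay near the olfactory receptor level, which was taken over single probe sets. They averaged 6.24, 6.21 and 5.91 in the Meg3 clone and 6.18, 6.09 and 6.02 in the vector clone. Endothelial markers, Cdh5 among them, were all below the median, with summed levels of 7.23 to 7.27 in the Meg3 clone and 7.16 to 7.43 in the vector clone. Fibroblast markers summed to 8.76 to 8.85 in the Meg3 clone and 8.75 to 8.95 in the vector clone. Glucagon (Gcg), the alpha cell hormone, was bright in both clones, at 12.66 in the Meg3 clone and 12.82 in the vector clone.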

How the data were processed

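RNA of 6 cultures, 3 of the Meg3 clone and 3 of the vector clone, was measured on Affymetrix arrays. The log2 values of single probe sets are those the authors deposited. The submitters' processing notes name RMA and Partek. Their versions and roles, and which genome build was used, were not given in the sources used here. Of 241419 probe sets, 212097 had 1 symbol, 4475 several and 24847 none, and genes were built from the first kind. Current symbols and the order of genes came from the GRCm38.p6 gene table (20363 of 20416 matched, 2742 through a synonym). Arrays carry no read depth, so their number limits the precision.

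The clones were compared gene by gene, Meg3 minus vector, by a two-sided moderated test without covariates or a filter on dim genes (limma 3.58.1, R 4.3.3). P-values were adjusted by Benjamini-Hochberg over the 20416 genes, and called means an adjusted p under 0.05. Scripts were tested on simulated data. Groups came from the sample titles. Whether equal replicate numbers pair the cultures could not be told, and the main fit treats them as unpaired. Clone numbers differ between the labels, and a sort mentioned there appears in no protocol, so neither is used. The members, gene lists and markers were chosen with earlier results of these data known.

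Named genes are the 10 cadherins, called genes of each partner list or its 2 with the highest mean where none is called, the 5 genes best correlated with Cdh6 (predicted and clone-derived names left out), and called neighbours of Cdh6 or the 2 with the highest mean. Other genes are named outside this rule, among them Meg3, cell type markers and the cadherin neighbours of Cdh6. Not all of these are marked as named after their values were seen. Alternatives were other gene summaries (brightest or median probe set, bright probe sets only), centring, renewed quantile normalization, a replicate block, trend and robust estimation, array weights, leaving out the dimmest 30% of genes, each array or both arrays that stood apart, and other levels for silent genes.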

Additional observations from a re-analysis of the deposited data

How the results depend on the processing

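The difference of Cdh6, which was picked on this contrast, was 2.29 with the median of the probe sets and otherwise 1.74 to 2.06, the range that leaving out 1 array at a time also gave. The number of genes called, 136 over all arrays, was 40 with the brightest probe set, 58 with the median of the probe sets, 30 with the replicate block, 1111 without both arrays that stood apart, 2682 with array weights (whose estimate did not converge), and 22 (without Meg3 replicate 3) to 349 (without vector replicate 2) when 1 array was left out. Of the 10 cadherins, a count from which nothing is read because of how they were chosen, 3 were called without both arrays, 2 with trend and robust estimation, 4 with array weights, and 1 to 2 with 1 array left out. Calls among partner genes, 2 over all arrays, were 0 with the brightest probe set, 1 with the median of the probe sets, 0 with the replicate block, 12 without both arrays, 28 with array weights, and 0 to 6 with 1 array left out. The share of cadherin probe sets whose mean of 6 arrays lay above the level of silent genes was 72.2% with the 95th percentile of olfactory receptors, 54.4% with the 99th and 62.7% with vomeronasal receptors. Of all probe sets tested singly, 2 were called, and 0 without both arrays, an alternative chosen after seeing the data. Deviations of same-numbered cultures correlated at -0.61, -0.63 and 0.28. The 2 arrays that stood apart carry different numbers and weigh heavily in these values, so they cannot show whether the numbers pair the cultures. The main fit is unpaired. With the replicate block neither Dsc2 (limma, adjusted p = 0.168) nor Itgb8 (0.0949) was called. Among cadherins that were not called, the sign changed with the setting for Cdh2 (-0.11 to 0.24), Cdh4 (-0.13 to 0.68), Cdh10 (-0.49 to 0.27), Cdh11 (-0.09 to 0.22) and Cdh13 (-0.17 to 0.19). The cause of these changes was not tested.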

Other observations

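Beside its own 13 probe sets, Cdh11 shares 3 with 6820431F20Rik, which the gene table lists as a transcribed pseudogene on chromosome 8. These were left out of the gene value because the array annotation gives them both symbols. They were bright in both clones, averaging 11.99, 11.15 and 12.43 in the Meg3 clone and 11.87, 11.07 and 12.29 in the vector clone. Signal from the gene and the pseudogene cannot be told apart on them, and their clone differences were 0.12, 0.08 and 0.14.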
